A study of Mus musculus with 47 samples.

Results

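The spleens compared here were 20 of 47 leukaemic mouse spleens, split by the RNA of a pair of lymphocyte genes. A spleen counted as Vpreb1-high when its Vpreb1 value lay above log2 7 and its Cd3d value at or below it, and as Cd3d-high in the opposite case. There were 13 Vpreb1-high and 7 Cd3d-high spleens. In 2 further spleens both genes were above that level and in 25 neither was, and these 27 were left out of the direct comparison. Values are log2 RMA expression values, on which a difference of 1 is a 2-fold difference in array signal. Vpreb1 lay at 7.28, 9.82 and 11.06 (lowest, median, highest) in the Vpreb1-high spleens, against 5.18, 5.22 and 5.30 in the Cd3d-high spleens. Cd3d lay at 5.28, 5.59 and 5.87 in the Vpreb1-high spleens, against 7.46, 9.42 and 10.23 in the Cd3d-high spleens. The spleens were chosen by these values, which were therefore not tested. The Vpreb1 value nearest above the level was 7.28 (Female 8) and the nearest below it 6.71 (Male 12), and for Cd3d they were 7.36 (Female 4, in which both genes were high) and 6.79 (Female 5).

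Each spleen came from a separate mouse with a terminal leukaemia labelled undifferentiated and myeloid. Every mouse carried an ACTB-cre transgene, whose promoter is active throughout the body, the conditional Sleeping Beauty transposase knocked into the ROSA26 locus, and the T2/Onc2 transposon array of line 6070 or line 6113. Cre switches the transposase on, and the mobile transposon then disturbs genes near its insertions, so that each leukaemia has insertions of its own. The mice of all groups shared these 3 elements, and no spleen without leukaemia was analysed here. The labels gave an insertion in Erg, an ETS family transcription factor gene, for 4 of 13 Vpreb1-high and 5 of 7 Cd3d-high tumours. Spleens are called by their labels (Female 8, Male 12), and the labels may not belong to the arrays they stand beside. The sex label was checked against Xist alone, counted as present above log2 7. It went against Xist on 24 of 47 arrays, 6 of the 13 Vpreb1-high and 4 of the 7 Cd3d-high arrays among them. Whether the Erg, line and age labels are affected as well was not tested. The age label, given without a unit, ran from 45 to 82 in Vpreb1-high and from 47 to 97 in Cd3d-high mice.

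Vpreb1 and Igll1 encode the surrogate light chain, which pairs with the immunoglobulin heavy chain on B cell precursors before a light chain has been rearranged. Cd3d and Cd3g encode chains of the CD3 complex, which carries the signal of the T cell receptor into the cell. B and T cell precursors share the RAG recombinase, which cuts DNA at receptor gene segments. These precursors differ in their transcription factors: EBF1 and PAX5 set the B lineage, and NOTCH1 signalling with BCL11B sets the T lineage. Whole spleens were measured, so fewer cells of a type and less RNA per cell cannot be told apart.

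The stretches in front of Vpreb1 and Cd3d are shown because these genes define the sides. Those of the related genes Igll1, Vpreb3, Cd3g and Cd3e, which the split did not use, are shown beside them. Each is the 250 bases before the RefSeq start site (GRCm38.p6), 5′ to 3′ on the gene's own strand. Capitals mark the E-box CAGGTG, a motif of E protein transcription factors, or the octamer ATGCAAAT, a motif of OCT factors, either of them read on both strands, and neither motif contains the other.
Vpreb1, chr16:16869256-16869505, minus strand: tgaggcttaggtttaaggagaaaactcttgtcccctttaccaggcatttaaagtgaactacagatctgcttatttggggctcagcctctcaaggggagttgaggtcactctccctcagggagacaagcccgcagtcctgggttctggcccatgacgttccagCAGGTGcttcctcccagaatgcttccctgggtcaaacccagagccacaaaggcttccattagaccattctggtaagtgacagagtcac
Igll1, chr16:16863986-16864235, minus strand: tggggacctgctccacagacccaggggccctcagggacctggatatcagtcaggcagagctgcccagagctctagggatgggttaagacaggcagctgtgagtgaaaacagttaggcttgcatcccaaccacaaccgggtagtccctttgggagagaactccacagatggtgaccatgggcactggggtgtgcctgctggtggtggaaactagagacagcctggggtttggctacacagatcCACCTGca
Vpreb3, chr10:75948050-75948299, plus strand: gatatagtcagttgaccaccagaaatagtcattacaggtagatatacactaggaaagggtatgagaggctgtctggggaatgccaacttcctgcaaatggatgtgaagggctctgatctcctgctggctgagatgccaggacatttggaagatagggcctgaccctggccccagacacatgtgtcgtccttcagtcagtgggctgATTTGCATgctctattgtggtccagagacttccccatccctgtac
Cd3d, chr9:44981536-44981785, plus strand: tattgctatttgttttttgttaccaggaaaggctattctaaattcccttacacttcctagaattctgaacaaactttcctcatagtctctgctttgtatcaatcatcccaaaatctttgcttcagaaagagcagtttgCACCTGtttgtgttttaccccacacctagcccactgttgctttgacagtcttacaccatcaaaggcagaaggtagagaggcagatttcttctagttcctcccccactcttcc
Cd3g, chr9:44980432-44980681, minus strand: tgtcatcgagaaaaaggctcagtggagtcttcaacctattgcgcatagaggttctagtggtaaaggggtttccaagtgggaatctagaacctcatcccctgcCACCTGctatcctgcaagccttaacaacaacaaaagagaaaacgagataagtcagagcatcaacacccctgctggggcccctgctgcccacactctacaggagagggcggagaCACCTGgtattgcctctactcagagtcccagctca
Cd3e, chr9:45009612-45009861, minus strand: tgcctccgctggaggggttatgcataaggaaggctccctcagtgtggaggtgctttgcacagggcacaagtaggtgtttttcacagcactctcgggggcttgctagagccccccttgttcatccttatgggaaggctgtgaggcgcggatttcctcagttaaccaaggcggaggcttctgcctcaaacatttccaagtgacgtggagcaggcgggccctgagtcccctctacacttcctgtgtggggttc

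The E-box was present once before Vpreb1, Igll1 and Cd3d and at 2 places before Cd3g, and the octamer once before Vpreb3. The stretch before Cd3e held neither set of letters. The starts of Vpreb1 and Igll1 lay 5270 bases apart on the same strand, and those of Cd3d and Cd3g 1355 bases apart on opposite strands. The start of Cd3e lay 27825 bases from that of Cd3d. Of 27025 genes with such a stretch in the RefSeq table, 17.1% held the E-box and 1.61% the octamer. Of the 14328 among them that were tested below, 16.9% held the E-box and 1.37% the octamer. Past that test, 161 of the 209 genes higher in Vpreb1-high spleens and 277 of the 359 higher in Cd3d-high spleens had such a stretch. The E-box stood in 17.4% of the 161 and 18.1% of the 277. The octamer stood before 7 of the 161 (4.35%) and 4 of the 277 (1.44%). The 7 were Blnk, Chchd10, Dll1, Gpm6a, Lpcat1, Vpreb3 and Wwc2. These shares are descriptions and were not tested.

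**Figure D1:**
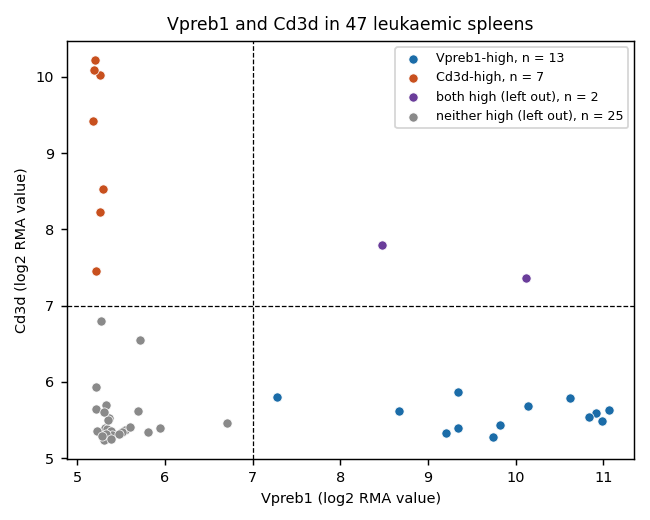
Vpreb1 (horizontal axis) against Cd3d (vertical axis), both as log2 RMA values, 1 point per spleen for all 47 spleens, with dashed lines at log2 7. The 13 Vpreb1-high spleens lie along the bottom, the 7 Cd3d-high spleens along the left edge, and 2 spleens lie above the level for both genes.

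The array medians of all probe sets lay between 5.19 and 5.24, so most values sat near a common floor, where differences of dim genes are compressed. No 2 arrays were identical. The correlation between arrays, across genes, was 0.902 to 0.985 within the Vpreb1-high spleens, 0.932 to 0.981 within the Cd3d-high spleens and 0.886 to 0.976 between the sides. Marker lists for B cell precursors and T cells hold Vpreb1 and Cd3d, which set the sides. Their means therefore describe the split and are no separate check of it. The mean of 10 B cell precursor markers, Vpreb1 among them, was 5.70 to 8.17 in Vpreb1-high spleens, against 5.50 to 5.84 in Cd3d-high spleens. The ranges overlapped through Female 8. The mean of 8 T cell markers, Cd3d among them, was 5.24 to 5.56 in Vpreb1-high spleens, against 6.42 to 8.28 in Cd3d-high spleens. In the Vpreb1-high spleens Cd3d, Cd3g, Cd3e, Cd247 and Bcl11b stayed below log2 6 in every spleen. In the Cd3d-high spleens Vpreb1, Igll1, Vpreb3, Cd79a, Ebf1 and Pax5 did so. Pax5 also stayed below log2 6 in all Vpreb1-high spleens. Lck and Tcf7 had no probe set of their own among those used.

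Set directly against each other, the sides differed in 568 of 18037 genes by limma with Benjamini-Hochberg adjustment over all of them (3.15%). Of these, 209 were higher in Vpreb1-high spleens (1.16%) and 359 were higher in Cd3d-high spleens (1.99%). The median difference over all genes tested was -0.0006. Differences of more than 1 on the log2 scale were found for 43 of the 209 and 53 of the 359. At an unadjusted p under 0.05, 2819 genes differed. For 12 genes every Vpreb1-high spleen lay above every Cd3d-high spleen (0.0665% of those tested), and for 29 the reverse held (0.161%). The sides were set on 2 genes of the same arrays, so genes that vary with Vpreb1 or Cd3d come with that choice, and the counts for B and T lineage lists describe it. The number of calls depended on 3 Cd3d-high spleens, Male 22, Female 7 and Female 23, whose Cd3d lay above log2 10. Without these 3, with 4 Cd3d-high spleens left, 54 genes were called, 5 of them higher in Vpreb1-high spleens, and 52 of the 54 were among the 568. Leaving out only 1 spleen gave 274 calls without Male 22, 290 without Female 7 and 375 without Female 23. A level of log2 6.5 for the sides gave 314 calls and one of 7.5 gave 930.

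Surrogate light chain and pre-B cell receptor genes were higher in the Vpreb1-high spleens. Of 15 tested members of the list, 7 passed the test (Igll1, Vpreb3, Blnk, Cd79b, Syk, Btk and Cd79a), all higher in Vpreb1-high spleens, and the list's median difference was 0.75. With the 3 spleens with Cd3d above log2 10 left out, 2 members passed and the median was 0.70. Igll1, the partner of Vpreb1 in the surrogate light chain, lay at 6.26, 9.56 and 10.53 (lowest, median, highest) in Vpreb1-high spleens, against 5.26, 5.33 and 5.40 in Cd3d-high spleens. The ranges did not overlap, and the lowest Vpreb1-high value was again that of Female 8. The difference was 3.64 ± 0.48 (SE), or 12.5-fold, with an adjusted p of 0.000321 by limma. Its probe set is of a type that can bind related transcripts, and the gene's other probe set was dim on both sides (mean 5.13 in Vpreb1-high and 5.11 in Cd3d-high spleens). Vpreb3, a related protein that binds newly made immunoglobulin chains inside the cell, lay at 5.68, 8.03 and 9.27 in Vpreb1-high spleens, against 5.28, 5.32 and 5.55 in Cd3d-high spleens. All 13 spleens lay above all 7 (difference 2.40 ± 0.39, limma adjusted p = 0.00208).

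Signalling parts of the receptor showed the same direction. Blnk, the adaptor that links SYK to its targets, lay at 5.69, 8.20 and 9.57 in Vpreb1-high spleens, against 5.62, 5.76 and 6.5 in Cd3d-high spleens. In 11 of 13 Vpreb1-high spleens it was above every Cd3d-high spleen, and Female 8 and Male 10 were the exceptions. The difference was 2.32 ± 0.44 (limma adjusted p = 0.00669). Cd79b, a signalling chain of the B cell receptor, lay at 5.72, 8.16 and 9.26 in Vpreb1-high spleens and at 5.70, 6.03 and 6.70 in Cd3d-high spleens, a difference of 1.97 ± 0.39 (limma adjusted p = 0.00944). The kinase genes Syk and Btk differed by 1.15 ± 0.21 and 0.96 ± 0.14 (limma adjusted p = 0.00566 and 0.000608). Btk did not overlap between the sides, and it is also made in myeloid cells. Set against the 25 spleens with neither gene high, Btk differed by 0.34 in Vpreb1-high (limma adjusted p = 0.0386) and by -0.63 in Cd3d-high spleens (0.00385). Syk differed by 1.33 (1.74e-10) and 0.17 (0.506) in the same limma fit and order.

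**Figure D2:**
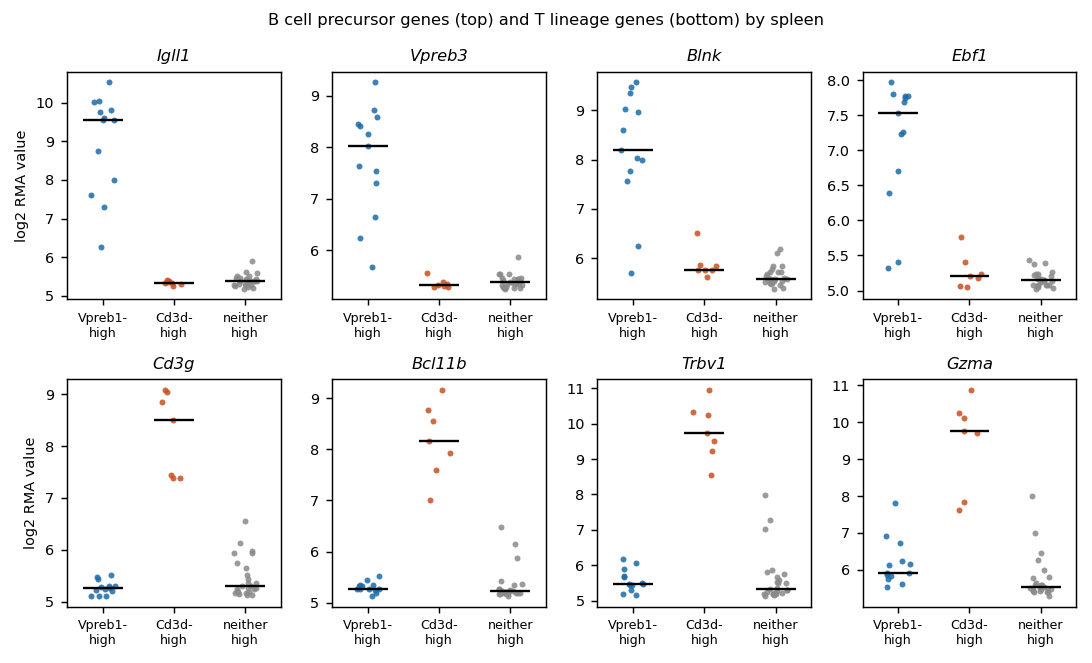
Log2 RMA values of 4 B cell precursor genes (top row) and 4 T lineage genes (bottom row), 1 point per spleen, in Vpreb1-high, Cd3d-high and, for orientation, the 25 spleens with neither gene high. Bars are medians. Igll1, Vpreb3, Cd3g, Bcl11b and Trbv1 do not overlap between the sides; Blnk, Ebf1 and Gzma do, through 1 or 2 spleens of the Vpreb1-high side.

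Transcription factors of the B lineage followed. Of 15 tested, 5 were higher in Vpreb1-high spleens and 0 in Cd3d-high spleens, with a list median of 0.45. Once the 3 spleens with Cd3d above log2 10 were left out, 0 passed and the median was 0.59. Ebf1, which opens the B lineage programme, lay at 5.32, 7.53 and 7.97 in Vpreb1-high spleens, against 5.05, 5.21 and 5.76 in Cd3d-high spleens. It was near the floor in 2 Vpreb1-high spleens, Female 8 at 5.32 and Male 10 at 5.40, and above every Cd3d-high spleen in the other 11 (difference 1.85 ± 0.34, limma adjusted p = 0.0053). Pou2af1, the B cell coactivator that works with OCT factors on the octamer, lay at 5.81, 8.81 and 9.31 in Vpreb1-high spleens, against 5.81, 6.21 and 7.01 in Cd3d-high spleens (difference 2.04 ± 0.44, limma adjusted p = 0.0135). The Pax5 difference passed at 0.19 ± 0.04 (limma adjusted p = 0.00857), but its values were dim on both sides, with medians of 5.53 in Vpreb1-high and 5.31 in Cd3d-high spleens. Bcl11a, needed for early B cells, and Spib, an ETS factor of B and dendritic cells, differed by 1.28 ± 0.31 and 1.09 ± 0.27 (limma adjusted p = 0.0267 and 0.0307). The call was lost for both on leaving out Female 7, Female 23 or Male 22, and for Spib also without Female 12 or Male 1 (adjusted p up to 0.0842 for Bcl11a and 0.0771 for Spib). Against the 25 spleens with neither gene high, Bcl11a differed by 0.19 in Vpreb1-high spleens (limma adjusted p = 0.431). In Cd3d-high spleens it differed from those 25 by -1.08 (limma adjusted p = 0.000257). Its median was 7.35 in the 25 and 7.54 in Vpreb1-high spleens. Spib was called higher in Vpreb1-high spleens in that limma fit (5.39e-09) and was not called in Cd3d-high spleens (0.498).

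Genes of later B cells were also counted. Over all genes tested, 1.16% were called higher in Vpreb1-high and 1.99% higher in Cd3d-high spleens. Of 15 mature B cell genes 2 passed, both higher in Vpreb1-high spleens: Tnfrsf13c, the BAFF receptor, by 0.80 ± 0.17 and the tetraspanin gene Cd37 by 0.78 ± 0.16 (limma adjusted p = 0.0127 and 0.0123). Of 10 plasma cell genes 1 was higher on each side. Mzb1, an endoplasmic reticulum protein of B and plasma cells that helps antibody secretion, lay at 5.99, 9.31 and 10.19 in Vpreb1-high spleens, against 5.70, 6.70 and 7.94 in Cd3d-high spleens, and 11 of 13 were above all 7 (difference 2.34 ± 0.48, limma adjusted p = 0.011). Edem1, which marks misfolded glycoproteins for removal, was lower in Vpreb1-high spleens by 1.02 ± 0.26 on the log2 scale (limma adjusted p = 0.0339), and 9 of the 20 omissions of 1 spleen ended that call. Ighm, the heavy chain of IgM (named after its values were seen), lay at 9.23, 10.69 and 12.19 in Vpreb1-high spleens, against 7.67, 9.56 and 11.58 in Cd3d-high spleens. It was bright on both sides, and its difference of 1.01 (95% interval -0.02 to 2.03) did not pass. Its other probe sets disagreed: the next brightest differed by 1.12, and another, with a mean of 6.05 in Vpreb1-high spleens, by -0.45.

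Among the 15 largest differences toward the Vpreb1-high spleens, 7 belonged to no lineage list. Pde2a, a phosphodiesterase of cyclic AMP and cyclic GMP, lay at 6.75, 10.42 and 10.79 in Vpreb1-high spleens, against 6.40, 6.56 and 8.49 in Cd3d-high spleens. It was above log2 8.6 in 12 of the 13 and Female 8 was the exception (difference 2.85 ± 0.47, limma adjusted p = 0.00271). Enpep, the aminopeptidase known in mice as the BP-1 antigen of B cell precursors, spread widely, with a lowest value of 5.2, a median of 7.67 and a highest of 10.24 in Vpreb1-high spleens, against 5.03, 5.16 and 5.23 in Cd3d-high spleens. It lay above all Cd3d-high spleens in 12 of 13 (difference 2.76 ± 0.64, limma adjusted p = 0.0208), and leaving out Female 7 or Male 22 raised the adjusted p to at most 0.0542. Ptgr1, a prostaglandin reductase, and Wdfy4, a gene of dendritic and B cells, differed by 2.35 ± 0.49 and 1.94 ± 0.30 (limma adjusted p = 0.011 and 0.0012). The mitochondrial protein gene Chchd10, the TRAF-binding adaptor gene Tifa and Tmem255a differed by 1.81 ± 0.33, 1.74 ± 0.31 and 1.69 ± 0.40 (limma adjusted p = 0.00486, 0.00431 and 0.0232). Tmem255a lost the call without Female 7, Female 23 or Male 22 (adjusted p up to 0.0598).

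On the other side, T cell receptor and CD3 genes were higher in Cd3d-high spleens. Of 10 tested, 0 were higher in Vpreb1-high spleens and 7 in Cd3d-high spleens, with a list median of -1.24. Leaving out the 3 spleens with Cd3d above log2 10, 6 passed and the median was -0.55. Trbv1, a variable segment of the T cell receptor beta chain, lay at 5.16, 5.47 and 6.17 in Vpreb1-high spleens, against 8.56, 9.74 and 10.96 in Cd3d-high spleens. This was the gene with the smallest adjusted p among those tested, with no overlap (difference -4.22 ± 0.24, limma adjusted p = 2.66e-09). Its probe set is of the type that can bind related transcripts, such as other receptor segments, and the gene's other probe set was dim on both sides (mean 5.14 in Vpreb1-high and 5.32 in Cd3d-high spleens), so the value may not be that of 1 segment alone. Cd3g lay at 5.10, 5.25 and 5.52 in Vpreb1-high spleens, against 7.38, 8.50 and 9.09 in Cd3d-high spleens, again with no overlap (difference -2.97 ± 0.22, limma adjusted p = 1.07e-07). Cd3e and Cd247, further chains of the complex, differed by -0.80 ± 0.12 and -1.18 ± 0.16 (limma adjusted p = 0.00101 and 0.000574), and Cd8b1, a chain of the CD8 coreceptor, by -1.30 ± 0.23 (limma adjusted p = 0.00431). Segments of other receptor chains were also higher in Cd3d-high spleens. Trgv1, of the gamma chain, lay at 5.05, 5.10 and 5.39 in Vpreb1-high spleens and at 5.73, 7.41 and 8.54 in Cd3d-high spleens, with no overlap (difference -2.11 ± 0.26, limma adjusted p = 0.000175). Trav9d-3, of the alpha chain, lay at 5.30, 5.75 and 6.18 in Vpreb1-high spleens and at 5.79, 8.10 and 9.37 in Cd3d-high spleens (difference -1.78 ± 0.37, limma adjusted p = 0.011), from a probe set of the same type. Trgv4, named after its values were seen, was above log2 7 on both sides in some spleens (highest 8.57 in Vpreb1-high and 9.05 in Cd3d-high spleens) and did not pass (difference -1.26, 95% interval -2.07 to -0.46, limma adjusted p = 0.0811).

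Of 22 T cell signalling genes, 0 were higher in Vpreb1-high spleens and 14 in Cd3d-high spleens, with a median of -0.77. The 5 with the smallest adjusted p were Sh2d1a, an adaptor of SLAM receptors, the costimulatory receptor gene Cd27, Thy1, a surface glycoprotein of T cells, Skap1, an adaptor for integrin activation, and Themis, a thymocyte signalling protein. Sh2d1a lay at 4.93, 5.03 and 5.23 in Vpreb1-high spleens, against 5.89, 7.67 and 8.33 in Cd3d-high spleens (difference -2.39 ± 0.24, limma adjusted p = 1.66e-05). Thy1 lay at 5.14, 5.35 and 6.17 in Vpreb1-high spleens, against 6.03, 8.15 and 9.47 in Cd3d-high spleens. Its ranges met only at 1 spleen of each side (difference -2.58 ± 0.36, limma adjusted p = 0.000608). Cd27, Skap1 and Themis differed by -1.25, -1.21 and -1.14. The costimulatory receptor gene Cd28 and the kinase gene Camk4 were each without overlap, with a difference of -1.81 for both (limma adjusted p = 0.00271 and 0.000175), and Itm2a, a membrane protein, differed by -1.84 ± 0.39 (limma adjusted p = 0.012). Of the 22, 5 passed without the 3 spleens with Cd3d above log2 10.

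Among transcription factor and Notch pathway genes of the T lineage, calls ran mostly toward the Cd3d-high spleens. Of 18 tested, 1 was higher in Vpreb1-high spleens (Themis2, which, unlike its relative Themis, is made by B cells and macrophages) and 8 in Cd3d-high spleens, with a median of -0.70. Without the 3 spleens with Cd3d above log2 10, 0 were higher in Vpreb1-high and 2 in Cd3d-high spleens. Bcl11b, which commits cells to the T lineage, lay at 5.13, 5.27 and 5.51 in Vpreb1-high spleens, against 7.01, 8.16 and 9.17 in Cd3d-high spleens (difference -2.87 ± 0.20, limma adjusted p = 4.77e-08). Notch1, the receptor that starts T cell development, lay at 5.76, 6.5 and 6.97 in Vpreb1-high spleens, against 5.90, 8.56 and 10.31 in Cd3d-high spleens. In 6 of 7 Cd3d-high spleens it was above every Vpreb1-high spleen, and the exception was Male 18 (difference -2.24 ± 0.42, limma adjusted p = 0.00586). Dtx1, a target gene of Notch signalling, lay at 5.50, 5.84 and 6.91 in Vpreb1-high spleens, against 5.83, 8.32 and 9.89 in Cd3d-high spleens, and Male 18 was again the exception (difference -2.25 ± 0.40, limma adjusted p = 0.00435). Satb1, a chromatin organiser of thymocytes, differed by -2.08 ± 0.37, Gata3 by -1.18 ± 0.13 and Tox by -0.95 ± 0.17 (limma adjusted p = 0.00431, 4.13e-05 and 0.00506). Rapgef2, an activator of the small GTPase RAP1 and of no lineage list, differed by -2.04 ± 0.40 (limma adjusted p = 0.00845). Lef1, a factor of B and T precursors alike (named after its values were seen), lay at 5.49, 7.35 and 8.36 in Vpreb1-high spleens and at 6.19, 8.64 and 9.38 in Cd3d-high spleens and did not pass (limma adjusted p = 0.114).

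Of 20 cytotoxic and natural killer genes, 0 were higher in Vpreb1-high spleens and 2 in Cd3d-high spleens, with a median of -0.07. Over all genes the shares were 1.16% and 1.99%. Gzma, the protease granzyme A, lay at 5.53, 5.92 and 7.81 in Vpreb1-high spleens, against 7.61, 9.75 and 10.88 in Cd3d-high spleens. The ranges overlapped through Male 10 on the Vpreb1-high side (difference -3.27 ± 0.40, limma adjusted p = 0.000175). Il2rb, a chain of the receptors for IL-2 and IL-15, differed by -0.34 ± 0.09 (limma adjusted p = 0.0489), and 17 of the 20 omissions of 1 spleen ended that call. Perforin (Prf1) and Ncr1, a receptor of natural killer cells, were named after their values were seen. Prf1 lay at 5.12, 5.21 and 5.34 in Vpreb1-high spleens and at 5.19, 5.25 and 6.85 in Cd3d-high spleens, where only Female 23 was above 5.5. Ncr1 stayed near the floor everywhere, with a highest value of 5.32 in Vpreb1-high and 5.17 in Cd3d-high spleens. The mean of the 6 cytotoxic markers was 5.35 to 6.63 in Vpreb1-high spleens and 5.69 to 7.05 in Cd3d-high spleens, and the part of cytotoxic cells in the Gzma difference was not tested.

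**Figure D3:**
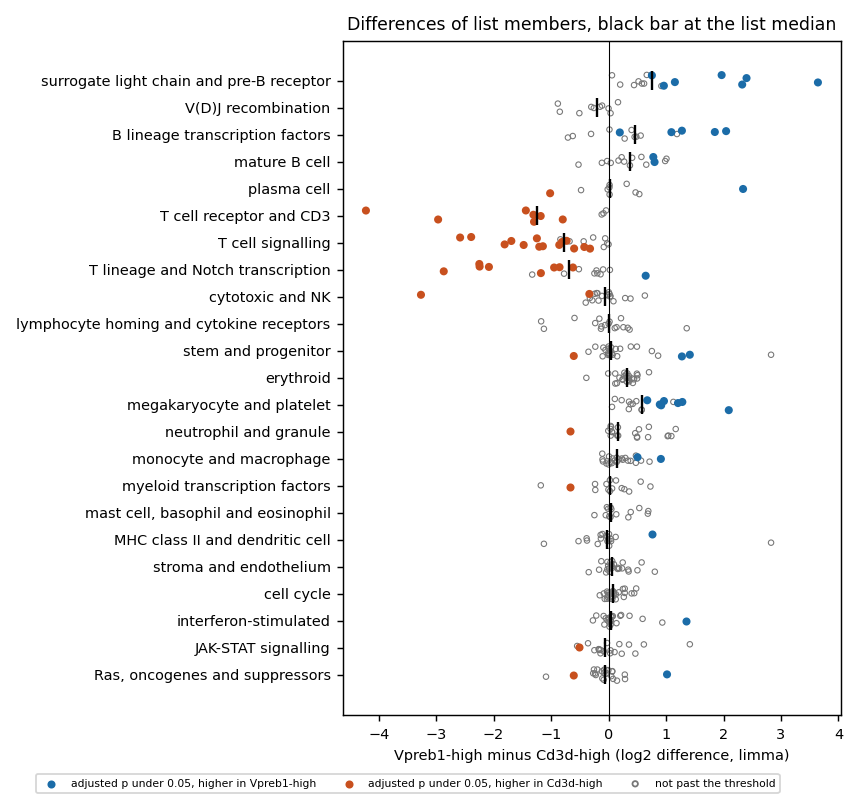
Differences (Vpreb1-high minus Cd3d-high, log2 scale) of the tested members of 23 gene lists, 1 point per gene, with the list median as a black bar. Filled points passed an adjusted p of 0.05 by limma. Filled points to the right gather in the pre-B receptor, B lineage factor and platelet lists, and those to the left in the 3 T cell lists.

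Of 10 tested V(D)J recombination genes, 0 passed in either direction by limma, with a median of -0.20. At an unadjusted limma p under 0.05, 0 were higher in Vpreb1-high and 5 in Cd3d-high spleens. Over all 18037 genes tested, 2819 had such a p in either direction. With all 47 arrays in the fit, 4 of the 10 were called higher in Cd3d-high spleens, and 2 with the 3′ to 5′ difference as a covariate or with a level of log2 8. The list median was -0.0051 without the 3 spleens with Cd3d above log2 10 and between -0.13 and -0.10 without Female 7, Female 8, Female 23, Male 10 or Male 22. Rag1, Rag2 and Dntt were named after their values were seen. Rag1, a subunit of the recombinase, lay at 5.26, 7.35 and 8.60 in Vpreb1-high spleens, against 5.01, 7.24 and 8.88 in Cd3d-high spleens, and was above log2 7 in 7 of 13 Vpreb1-high and 4 of 7 Cd3d-high spleens. The difference was -0.26 with a 95% interval of -1.40 to 0.88. Rag2, the other subunit, was dim, with highest values of 6.05 in Vpreb1-high and 6.33 in Cd3d-high spleens (difference 0.03, 95% interval -0.37 to 0.44). Dntt, the enzyme that adds untemplated bases at the joins, was above log2 7 in 3 Vpreb1-high spleens (Male 3, Female 12 and Male 16) and 3 Cd3d-high spleens (Female 7, Female 23 and Male 22). It lay at 5.09, 5.34 and 7.85 in Vpreb1-high spleens and at 5.00, 6.71 and 8.30 in Cd3d-high spleens (difference -0.88, 95% interval -2.01 to 0.24). Lig4 and Prkdc, which take part in repairing the breaks, had the smallest p of the list and did not pass (differences -0.51 and -0.15, limma adjusted p = 0.0688 and 0.0697).

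Genes high together with Rag1 were then counted. Among the Vpreb1-high spleens, 4 of 13 had both Rag1 and the cytokine receptor gene Flt3 above log2 7, against 0 of 7 Cd3d-high spleens. Rag1 and Notch1 were both above log2 7 in 0 of 13 Vpreb1-high and 4 of 7 Cd3d-high spleens, and Rag1 together with Ptcra, the invariant chain of the pre-T cell receptor, in 0 of 13 Vpreb1-high and 3 of 7 Cd3d-high spleens. Rag1 and Dntt were both above log2 7 in 3 of 13 Vpreb1-high and 3 of 7 Cd3d-high spleens. The counts of 0 follow from the partner gene alone. Notch1 and Ptcra stayed below log2 7 in all Vpreb1-high spleens (highest 6.97 and 5.36), and Flt3 in all Cd3d-high spleens. All these counts were chosen after the values were seen and were not tested. Flt3, a receptor of lymphoid and myeloid progenitors, lay at 5.2, 9.56 and 10.31 in Vpreb1-high spleens, against 5.22, 5.28 and 6.03 in Cd3d-high spleens. It was above log2 7 in 8 of 13 Vpreb1-high and 0 of 7 Cd3d-high spleens, and below that level in the other 5 Vpreb1-high spleens. The difference of 2.83 ± 0.80 (95% interval 1.15 to 4.51) did not pass over all genes (limma adjusted p = 0.0597), and leaving out 1 spleen at a time brought it past the threshold in 4 of 20 cases. Flt3 and Enpep were both above log2 7 in 7 of the 13 Vpreb1-high spleens and in 0 of the 7 Cd3d-high spleens. Il7r, the interleukin-7 receptor of early B and T cells, lay at 5.64, 8.18 and 8.98 in Vpreb1-high spleens and at 5.76, 6.43 and 6.93 in Cd3d-high spleens (difference 1.36, 95% interval 0.56 to 2.16, limma adjusted p = 0.0572). Of 17 homing and cytokine receptor genes, Il7r among them, 0 passed by limma. An unadjusted limma p under 0.05 was found for 5 of the 17, and for 2819 of all 18037 genes tested. The smallest adjusted p of the list was that of Il2ra, a chain of the interleukin-2 receptor (difference -1.17, 95% interval -1.86 to -0.49, limma adjusted p = 0.0549).

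The Cd3d-high spleens varied among themselves. Notch1 lay at 10.31 in Female 23, 9.95 in Female 7, 9.90 in Male 22, 8.56 in Male 1, 8.22 in Female 11, 8.03 in Male 13 and 5.90 in Male 18. The same 3 spleens led for Rag1 (8.68 in Female 23, 8.62 in Female 7 and 8.88 in Male 22) and for Ptcra (7.61, 7.66 and 7.69 in that order), and the other 4 had at most 7.24 for Rag1 and 6.43 for Ptcra. Cd8a lay at 8.11, 7.56 and 7.73 in these 3 and at most at 6.39 in the other 4, while Cd4 stayed between 5.22 and 5.63 in all 7. Male 18 had the lowest values of the 7 for Rag1 (5.01) and Dtx1 (5.83), with Lef1 at 9.17. Its chemokine receptor gene Ccr9 lay at 9.76, against at most 6.32 in the other 6. Erg lay at 7.77 in Female 11 and at most at 5.86 in the other 6. Trbv1 and Bcl11b were above log2 7 in all 7 of them.

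Among the Vpreb1-high spleens, Female 8 and Male 10 stood apart. Female 8 had the lowest Vpreb1 (7.28), Igll1 (6.26), Vpreb3 (5.68) and Pde2a (6.75) of the 13. Male 10 had Vpreb1 at 9.82 but Ebf1 at 5.40, Blnk at 6.25 and Rag1 at 5.26, with Gzma at 7.81. Its mean over 5 mast cell, basophil and eosinophil markers was 9.52, against at most 6.22 in the other 12 and 5.50 in the Cd3d-high spleens. Without Female 8 the count of calls was 823. Without Male 10 and Male 13, the 2 spleens whose 3′ to 5′ control difference was above 2, it was 794, and 7 members of the pre-B receptor list were called.

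**Figure D4:**
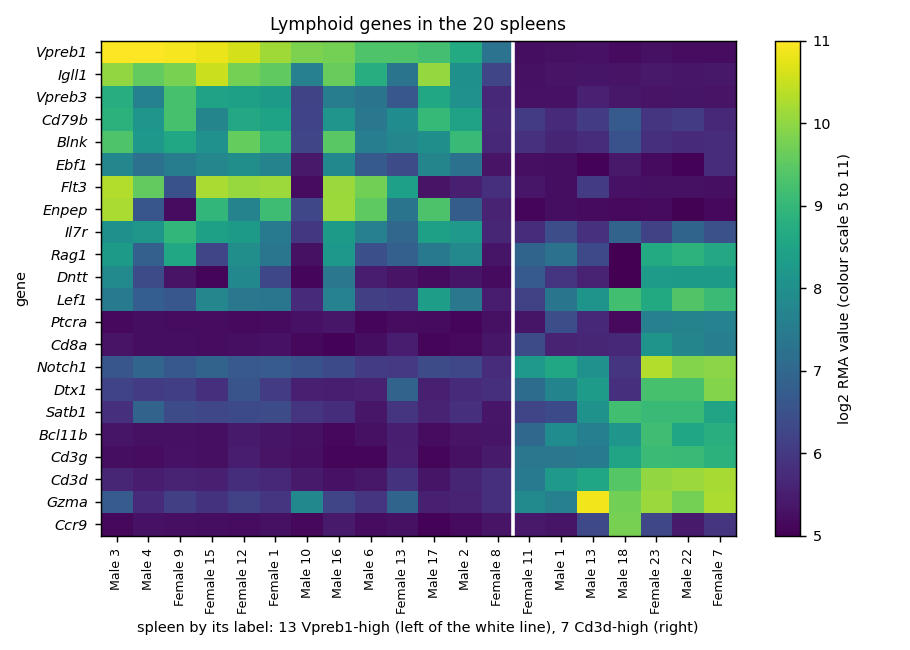
Log2 RMA values (colour, 5 to 11) of 22 lymphoid genes in the 20 spleens, ordered by Vpreb1 on the left of the white line and by Cd3d on the right. Rag1 and Lef1 are bright in spleens of both sides, whereas Flt3 and Enpep are bright only on the Vpreb1-high side and Ptcra and Notch1 only on the Cd3d-high side of these 20.

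Platelet genes were higher in the Vpreb1-high spleens. Of 18 tested megakaryocyte and platelet genes, 7 were higher in Vpreb1-high and 0 in Cd3d-high spleens, and all 18 had a positive difference, with a median of 0.58 against -0.0006 over all genes. Without the 3 spleens with Cd3d above log2 10, 0 passed and the median was 0.40. Leaving out 1 spleen at a time left between 3 and 7 calls. Ppbp, a chemokine of platelet granules, lay at 7.94, 9.81 and 10.34 in Vpreb1-high spleens, against 5.90, 7.47 and 8.77 in Cd3d-high spleens. It was above all Cd3d-high spleens in 12 of 13 (difference 2.09 ± 0.39, limma adjusted p = 0.0057). Tubb1, the tubulin of platelets, lay at 6.40, 7.08 and 8.21 in Vpreb1-high spleens, against 5.36, 6.15 and 6.52 in Cd3d-high spleens (difference 1.28 ± 0.24, limma adjusted p = 0.00618). Gp1bb, a chain of the von Willebrand factor receptor, lay at 5.99, 7.09 and 7.80 in Vpreb1-high spleens, against 5.17, 5.63 and 6.33 in Cd3d-high spleens (difference 1.21 ± 0.26, limma adjusted p = 0.0133). These 3 calls held on leaving out any 1 spleen. The mean of the 5 megakaryocyte markers was 7.20 to 8.72 in Vpreb1-high spleens and 5.92 to 7.45 in Cd3d-high spleens, and whether megakaryocytes or platelets held in the spleen carry the difference was not tested.

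The other calls in the platelet list were close to the threshold. The podoplanin receptor gene Clec1b and Thbs1, a granule protein, differed by 0.92 ± 0.23 and 0.89 ± 0.23 (limma adjusted p = 0.0301 and 0.0351), and 5 and 9 of the 20 omissions of 1 spleen ended these calls. Gp9 and Itgb3, named after their values were seen, had adjusted p of 0.0425 and 0.0481 by limma and lost the call in 11 and 16 of 20. Pf4, also named then, lay at 8.22, 9.39 and 10.66 in Vpreb1-high spleens and at 6.29, 8.46 and 9.58 in Cd3d-high spleens and did not pass (difference 1.13, 95% interval 0.26 to 1.99). Rasgrp2, an activator of RAP1 in platelets, stood in the list of Ras genes, oncogenes and suppressors and is not counted with the platelet genes. It did not overlap between the sides (difference 1.02 ± 0.16, limma adjusted p = 0.00158), and which cells carry its RNA was not tested. Set against the 25 spleens with neither gene high, Ppbp was higher in the Vpreb1-high spleens by 2.84 (limma adjusted p = 9.93e-08), and its difference in the Cd3d-high spleens was 0.75 (0.291). Thbs1 differed by 0.30 in the Vpreb1-high spleens (limma adjusted p = 0.344) and by -0.59 in the Cd3d-high spleens (0.144), neither past the threshold.

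**Figure D5:**
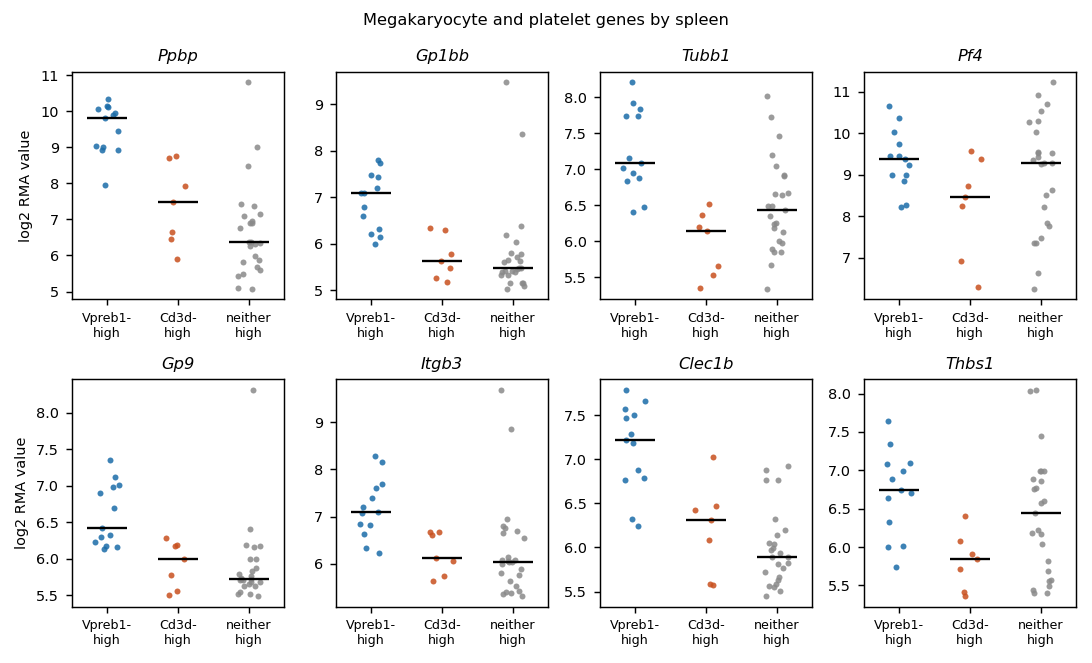
Log2 RMA values of 8 megakaryocyte and platelet genes, 1 point per spleen and bars at medians, in Vpreb1-high spleens, Cd3d-high spleens and the 25 with neither gene high. The Vpreb1-high median is above the Cd3d-high median for each of the 8 genes.

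The counts for other blood lineages stand beside the shares over all genes tested. Of these genes 1.16% were called higher in Vpreb1-high and 1.99% higher in Cd3d-high spleens. An unadjusted limma p under 0.05 was found for 2819 of all 18037. Of 25 erythroid genes 0 passed by limma and 1 had an unadjusted p under 0.05 (Bcl2l1, a survival gene of red cell precursors, difference 0.35, 95% interval 0.14 to 0.57), with a list median of 0.32. That median was -0.07 without the 3 spleens with Cd3d above log2 10, 0.18 without Male 22 and 0.19 without Female 13. The transcription factor gene Klf1 lay at 5.62, 8.07 and 9.99 in Vpreb1-high spleens and at 6.39, 7.53 and 9.40 in Cd3d-high spleens (named after its values were seen, difference 0.33, 95% interval -0.77 to 1.42). Of 21 neutrophil genes 0 were higher in Vpreb1-high and 1 in Cd3d-high spleens, the repressor gene Gfi1 (-0.68 ± 0.16, limma adjusted p = 0.0232), which is also made in T cells and lost the call without Female 7, Female 23 or Male 22 (adjusted p up to 0.0738). S100a8, a neutrophil calcium-binding protein named after its values were seen, lay at 7.83, 9.99 and 11.99 in Vpreb1-high spleens and at 7.71, 8.55 and 10.64 in Cd3d-high spleens (difference 1.03, 95% interval -0.03 to 2.08). Of 25 monocyte and macrophage genes 2 were higher in Vpreb1-high spleens, Adgre1 (F4/80) by 0.50 and the secreted scavenger protein gene Cd5l by 0.91. These calls were lost in 13 and 4 of the 20 omissions. Against the 25 spleens with neither gene high, Adgre1 differed by 0.32 in Vpreb1-high (limma adjusted p = 0.00083) and by -0.19 in Cd3d-high spleens (0.168). Cd5l differed by -0.24 in Vpreb1-high (0.19) and by -1.15 in Cd3d-high spleens (3.71e-06) in the same limma fit. By limma, 0 of 14 mast cell, basophil and eosinophil genes, 0 of 26 stromal and endothelial genes and 0 of 29 cell cycle genes passed, while 0, 6 and 3 had an unadjusted p under 0.05. The smallest adjusted p in the stromal list was that of Eng, an endothelial coreceptor (difference 0.23, 95% interval 0.10 to 0.37, adjusted p = 0.0577), and in the cell cycle list that of Ccnd3, a cyclin of lymphocytes (0.40, 95% interval 0.14 to 0.66, adjusted p = 0.0886). Of 15 myeloid transcription factor genes only Gfi1 passed.

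The counts of the next lists stand beside 1.16% of all genes called higher in Vpreb1-high and 1.99% higher in Cd3d-high spleens, 3.15% together. Of 26 stem and progenitor genes, 2 were higher in Vpreb1-high spleens and 1 in Cd3d-high spleens. Cd93, a surface protein of early B cells and progenitors, lay at 5.97, 7.69 and 8.64 in Vpreb1-high spleens, against 5.67, 5.96 and 6.23 in Cd3d-high spleens (difference 1.41 ± 0.29, limma adjusted p = 0.011). Bcl11a was the second, but in Vpreb1-high spleens it was not called against the 25 spleens with neither gene high (limma adjusted p = 0.431). Mycn, a MYC family gene, was the gene higher in Cd3d-high spleens (-0.61 ± 0.16, limma adjusted p = 0.0405, lost in 14 of 20 omissions). Tcf4, an E protein gene of B and plasmacytoid dendritic cells, was higher in Vpreb1-high spleens by 0.76 ± 0.18 (limma adjusted p = 0.0205), and leaving out Female 7 or Male 22 ended the call (up to 0.0644). Of 20 JAK-STAT genes only Stat5a passed, at -0.51 ± 0.09 (limma adjusted p = 0.00431). It lay at 5.73, 5.94 and 6.41 in Vpreb1-high spleens and at 6.27, 6.47 and 6.90 in Cd3d-high spleens, with a median of 6.72 in the spleens with neither gene high. Of 24 interferon-stimulated genes only Ifi27l2a passed, higher in Vpreb1-high spleens by 1.34 ± 0.34 (limma adjusted p = 0.0348, lost in 10 of 20 omissions). Erg, named after its values were seen, lay at 5.43, 6.19 and 7.29 in Vpreb1-high spleens and at 5.08, 5.39 and 7.77 in Cd3d-high spleens (difference 0.49, 95% interval -0.19 to 1.18).

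Each side was also set against the 25 spleens with neither gene high, in a limma fit of all 47 arrays in 4 groups. The comparisons share those 25 spleens. The 25 were set apart by low Vpreb1 and low Cd3d in the same arrays. Genes that vary with Vpreb1 or Cd3d therefore come with that choice here too, and the values below describe it. Of 18073 genes 5909 (32.7%) differed between the Vpreb1-high and the 25 spleens, 2296 of them higher (12.7%) and 3613 lower (20.0%) in the Vpreb1-high spleens. Of 18156 genes 3327 (18.3%) differed between the Cd3d-high and the 25 spleens, 1634 higher (9.0%) and 1693 lower (9.32%) in the Cd3d-high spleens. Rag1 was higher in Vpreb1-high spleens by 1.94 (limma adjusted p = 3.92e-07) and in Cd3d-high spleens by 2.19 (6.62e-06), Lef1 by 1.42 (0.000404) and 2.75 (1.47e-06), and Il7r by 2.19 (7.73e-11) and 0.83 (0.0163). Car1, an erythroid progenitor enzyme named after its values were seen, differed by -2.20 in Vpreb1-high spleens and by -1.81 in Cd3d-high spleens (limma adjusted p = 2.35e-05 and 0.00731). Its medians were 8.84 in Vpreb1-high spleens, 8.45 in Cd3d-high spleens and 11.16 in the 25. Gata3 and Bcl11b were not called in the Vpreb1-high spleens (differences -0.08 and -0.04), nor Ebf1 and Vpreb3 in the Cd3d-high spleens (0.11 and -0.04).

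The labels of the 2 sides were compared as deposited, which assumes that they belong to the arrays, and the sex labels put that in doubt. No label passed its test. Erg insertion labels were carried by 30.8% of Vpreb1-high tumours (4 of 13) and 71.4% of Cd3d-high tumours (5 of 7; two-sided Fisher's exact test, p = 0.160, adjusted over 4 labels 0.50). Line 6070 made up 6 of 13 Vpreb1-high and 4 of 7 Cd3d-high tumours, and female labels 6 of 13 Vpreb1-high and 3 of 7 Cd3d-high tumours (p = 1.0 for each by the same exact test). Among arrays whose sex label matched their Xist value, Erg insertion labels were carried by 2 of 7 Vpreb1-high and 2 of 3 Cd3d-high tumours. Female labels were carried by 4 of 7 Vpreb1-high and 0 of 3 Cd3d-high tumours among them. The age label, whose unit is not given, averaged 63.2 ± 10.8 in Vpreb1-high mice and 71.6 ± 21.1 in Cd3d-high mice (SD, n = 13 and 7; two-sided exact permutation test, p = 0.250, adjusted 0.50). The 3′ to 5′ difference of the Actb and Gapdh control probe sets, a sign of RNA breakdown when high, averaged 1.36 ± 0.57 in Vpreb1-high and 1.25 ± 0.43 in Cd3d-high spleens (two-sided exact permutation test, p = 0.695). It was highest in Male 10 (2.96) and Male 13 (2.13).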

How the data were processed

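RNA of 47 leukaemic spleens was hybridised to Affymetrix mouse arrays, 1 per mouse. The submitters' processing notes name RMA, affy and R 2.15 as the source of the deposited log2 values. RMA corrects background, quantile normalises arrays and summarises probe sets. Of 45101 probe sets, 34945 named 1 gene and were used, those naming several genes or none (932 and 9160) were not, and the probe set with the highest mean over the 47 arrays stood for a gene (18193 genes). The Vpreb1 probe set names that gene alone. Genes above log2 5 in at least 7 of the 20 arrays were tested (18037, 154 removed), leaving out Vpreb1 and Cd3d, with limma 3.58.1 (lmFit, eBayes) in R 4.3.3, no covariates and a threshold of 0.05. Single values were compared with exact permutation or Fisher's exact tests (scipy 1.17.1). The gene test was tested on simulated data first.

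The split follows the Vpreb1 and Cd3d values of the same arrays, not a label. The split, the members and the 23 gene lists were chosen with earlier results of these data known. Named genes are the 15 largest differences per direction past the threshold and, per list, up to 5 called members in order of adjusted p, or the 2 with the lowest p where 0 were called. Other genes are said to be named after their values were seen, or stand in a count or a per-spleen description. Alternatives changed the level, the genes that set the sides, the arrays in the fit, covariates, the dim-gene filter, the probe set, the scaling, the variance prior and each spleen in turn. For arrays, their number limits the precision.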

Additional observations from a re-analysis of the deposited data

Results flagged for a closer look

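For 12 of 94 items tested within the 7 Cd3d-high spleens, 1 spleen lay far from the other 6 by Dixon's ratio at the 95% level. Chance alone passes that level in about 1 of 20 groups chosen without regard to their values. Ccr9, Erg, Ets1, Flt3 and Prf1 were named after their values were seen, so that rate does not hold for them. Most other items were genes named by their differences in these data, and whether 12 exceeds chance was not tested. Groups of more than 10 were not tested. Male 18 was highest for Blnk (6.51, others 5.62 to 5.86), Ccr9 (9.76, others 5.34 to 6.32), Cd79b (6.70, others 5.70 to 6.07) and Spib (6.40, others 5.42 to 5.64). Male 13 was highest for Chchd10 (7.70, others 6.38 to 6.76), Flt3 (6.03, others 5.22 to 5.37), Tmem255a (5.67, others 5.04 to 5.20) and Vpreb3 (5.55, others 5.28 to 5.38), and also for the 3′ to 5′ control difference (2.13, others 0.91 to 1.37), whose part in those values was not tested. Female 11 was highest for Erg (7.77, others 5.08 to 5.86) and lowest for Ets1 (7.71, others 9.16 to 9.74). Female 23 was highest for the perforin gene Prf1 (6.85, others 5.19 to 5.45).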

How the results depend on the processing

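The direct comparison called 568 genes. The count was 314 with the level at log2 6.5, 930 at 7.5, 1276 with all 47 arrays in 1 fit, 315 with the number in the tumour identifier as a block, and 274 (Male 22) to 823 (Female 8) on leaving out 1 spleen. Without the 3 spleens with Cd3d above log2 10, chosen after seeing the data, it was 54, with 4 spleens left on that side. The split of higher to lower calls was 209 to 359, 250 to 264 with line and Erg label as covariates and 171 to 220 among genes with a mean above log2 6. Of 62 named genes called, 0 changed direction in those of the 36 other settings that tested them, 46 stayed called without any 1 spleen and 17 without the 3. With the mean above log2 6, 47 of the 62 were tested, and with sides by Igll1 and Cd3g 60. Most of the 62 were named by their calls in these arrays, and most settings refit nearly the same arrays. The kept direction is therefore no separate support. Against the spleens with neither gene high, the mean above log2 6 gave 2992 calls for the Vpreb1-high and 1827 for the Cd3d-high spleens, fewer genes being tested, and the level of 6.5 gave 2111 for the Cd3d-high spleens. At 6.5 the difference in percentage points turned round for line 6070 (5.56, -10.99 at 7) and for female labels (-1.59, 3.30 at 7). Among named genes not called, Rag1 (-0.26) turned to 0.21 with the block, 0.21 in tumours numbered 09 and 0.75 without the 3 spleens; Rag2 (0.034) to -0.026 at 7.5 and -0.047 at 8, and ran from -0.0453 to 0.17 without 1 spleen; Dntt (-0.88) to 0.18 and Klf1 (0.33) to -0.34 without the 3, Klf1 to -0.054 with the covariates, and Car1 (-0.39) ran from -0.68 to 0.0086 (Male 1) without 1 spleen. The causes were not tested. Leave-one-out fits were not run for the comparisons with the 25 spleens or for labels. No paired analysis was possible because the spleens come from separate mice and the labels pair none of them. Values near the array floor limit what dim genes can show.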
